A study of Homo sapiens with 6 samples.

Results

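The phospholipase A2 family was followed through RNA sequencing of HEK293 cells, an established human embryonic kidney line, in which the ubiquitin ligase gene MUL1 was intact (WT) or had been inactivated with CRISPR-Cas9 (MUL1(−/−)). The members are a fixed list of names. The 10 names given for the family (PLA2G2A, PLA2G4A, PLA2G4B, PLA2G4C, PLA2G6, PLA2G7, PLA2G12A, PLA2G15, PLA2G16 and PLAAT3) stand for 9 genes, because PLA2G16 is the older symbol of PLAAT3, out of 57123 genes with exon bins of their own in the count tables. There were 3 libraries per genotype, made from total RNA of cells kept in the same medium without further treatment, and gene counts summed to between 127015142 and 142803296 in WT libraries and between 121917971 and 122441959 in libraries labelled MUL1(−/−). The sources used here do not say whether the MUL1(−/−) libraries came from 1 clone, nor whether replicates were separate cultures. The study describes its quantitative data in general as from independent experiments, without saying so of these libraries, so the p-values measure the spread between these libraries, which may be technical. Levels are CPM, counts relative to the library total after TMM scaling, a fold change is that of the libraries labelled MUL1(−/−) over WT, and adjusted p-values came from edgeR's quasi-likelihood test over the 25125 genes with enough counts to be tested.

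Phospholipases A2 cut a fatty acid from the middle position of a membrane phospholipid, which leaves a lysophospholipid and a free fatty acid. When that fatty acid is arachidonic acid, cyclooxygenases and lipoxygenases turn it into prostaglandins and leukotrienes, and the lysophospholipid can be acylated again, broken down, or made into lysophosphatidic acid or platelet-activating factor (PAF). The family falls into small secreted enzymes (PLA2G2A, PLA2G12A), cytosolic enzymes of group IV (PLA2G4A, PLA2G4B, PLA2G4C), the calcium-independent enzyme PLA2G6, the PAF acetylhydrolase PLA2G7, the lysosomal enzyme PLA2G15 and PLAAT3, a small membrane-bound phospholipase and acyltransferase.

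MUL1 itself, a ligase of the outer mitochondrial membrane, was not lower in the libraries labelled MUL1(−/−), with means of 16.5 ± 2.15 CPM (WT) and 18.2 ± 1.35 CPM (SD, n = 3; log2 fold change 0.14 ± 0.10 SE, edgeR adjusted p = 0.321). A frameshift need not remove a transcript, so this level does not check the genotype labels. The labels are therefore used as given.

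Among the 8 members that could be tested, 3 passed an adjusted p of 0.05 (37.5%), the same share as the 37.5% of all tested genes that did. Higher in the libraries labelled MUL1(−/−) were 2 members, PLA2G4C and PLA2G4A, against 18.8% of all tested genes, and lower was 1, PLA2G7, against 18.7%. PLA2G4C was the 1 member that was also more than 2-fold higher, a size reached by 4.23% of tested genes in that direction. Past both thresholds in the other direction were 3.87% of tested genes and 0 members, by edgeR, DESeq2 and limma-voom alike, while 2 members were lower at an unadjusted p under 0.05 in edgeR. The 3 libraries of each genotype did not overlap for 3 of the 8 members and for 48.5% of tested genes. Of all changed genes 50.1% were higher, and 60.8% with library totals in place of TMM factors. A share of members near that of all genes is not a result about the family. The results below are those of single genes.

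**Figure D1:**
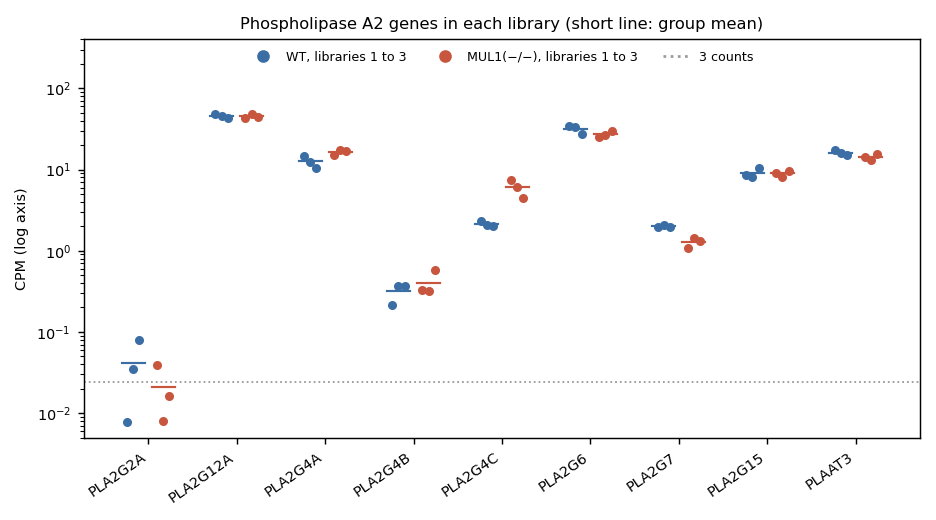
CPM (log axis) of each of the 9 phospholipase A2 genes in the 3 WT libraries (blue) and the 3 libraries labelled MUL1(−/−) (red); short lines are group means and the dotted line is the level of 3 counts. The groups of PLA2G4C, PLA2G4A and PLA2G7 do not overlap, and PLA2G2A lies around the level of 3 counts.

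Per kilobase of counted exon, the members spanned a wide range of levels over the 6 libraries. A read counts in each bin it touches, so a gene cut into more bins can seem higher. PLA2G6 has 80 bins and PLA2G4C 68, against 18 in PLA2G4A and 10 in PLA2G12A. The order of members and their overlaps may in part reflect this cutting, which was not corrected for. PLA2G12A was highest at 8.67 ± 0.400 CPM per kilobase (SD, n = 6). PLA2G4A (5.07 ± 0.926), PLAAT3 (4.88 ± 0.494) and PLA2G6 (4.37 ± 0.546) followed, and neighbours in this order overlapped in their libraries. PLA2G15 came next at 2.02 ± 0.216 CPM per kilobase, without overlap with PLA2G6 above it or PLA2G7 below it. PLA2G7 (0.815 ± 0.208), PLA2G4C (0.616 ± 0.352) and the bins that belong to PLA2G4B alone (0.332 ± 0.109) again overlapped with their neighbours in order. Within a genotype the order differed in places. In WT it ran PLAAT3 (5.20), PLA2G6 (4.69) and PLA2G4A (4.37 CPM per kilobase), and in MUL1(−/−) libraries PLA2G4A (5.76) came before PLAAT3 (4.57) and PLA2G6 (4.05). PLA2G4C was below PLA2G7 in WT (0.322 against 0.996) and above it in MUL1(−/−) (0.910 against 0.634 CPM per kilobase). Over all libraries PLA2G2A was lowest at 0.0184 ± 0.0162 CPM per kilobase, below every library of PLA2G4B.

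Of the cytosolic enzymes, PLA2G4C showed the largest difference of the 8 tested members. It encodes a group IV enzyme that needs no calcium and is held at membranes by a lipid anchor, and it lies on chromosome 19 (GRCh38, chr19:48047843-48110817, minus strand; ENSG00000105499). Its level was 2.31, 2.05 and 2.03 CPM in WT libraries 1 to 3, and 7.46, 6.09 and 4.49 CPM in MUL1(−/−) libraries 1 to 3, from 256 to 293 and 557 to 944 counts. Every MUL1(−/−) library was above every WT library, with a wider spread among the former. The gene was 2.82-fold higher (log2 fold change 1.50 ± 0.16 SE, 95% interval of the fold 2.22 to 3.59, edgeR adjusted p = 4.69e-06), and without the library that was highest, MUL1(−/−) replicate 1, the log2 fold change was 1.32.

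PLA2G4A encodes the calcium-dependent cytosolic enzyme that prefers arachidonic acid and supplies most of the substrate for prostaglandins in many cells (chr1:186828953-186988981, plus strand; ENSG00000116711). It was measured at 14.6, 12.5 and 10.5 CPM in WT and at 15.2, 17.4 and 17.1 CPM in MUL1(−/−) libraries. The groups did not overlap, but the highest WT library came within 1 CPM of the lowest MUL1(−/−) library. The fold change was 1.32 (log2 0.40 ± 0.11 SE, 95% interval of the fold 1.12 to 1.56, edgeR adjusted p = 0.0117). With the most counted exon bin of each gene in place of the sum, and DESeq2, the adjusted p was 0.0589 at a log2 fold change of 0.40.

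PLA2G4B, a calcium-dependent cytosolic enzyme, lies on chromosome 15 (chr15:41837775-41848147, plus strand; ENSG00000243708) inside the read-through gene JMJD7-PLA2G4B, and few of its bases belong to it alone. The 4 bins it does not share cover 1086 bases between shared exons and held 0.213, 0.368 and 0.365 CPM in WT and 0.324, 0.320 and 0.573 CPM in MUL1(−/−) libraries. These values overlapped and did not pass the test (log2 fold change 0.36 ± 0.30 SE, edgeR adjusted p = 0.379). The 33 bins shared with the read-through gene held far more, 12.1 ± 0.139 CPM (WT) against 11.02 ± 0.657 CPM (SD, n = 3). With the shared bins counted for PLA2G4B, its log2 fold change turned to -0.12 (edgeR adjusted p = 0.323), so no direction is given for this gene. Summed over the 3 cytosolic members, to which PLA2G4A gave most counts, the level was 17.2, 15.0 and 12.9 CPM in WT and 23.0, 23.9 and 22.1 CPM in MUL1(−/−) libraries, without overlap. PLA2G4A and PLA2G4C each separated in this direction, so the separation of the sum is not a further result. Over all 8 tested members the sums overlapped, with 127, 120 and 111 CPM in WT and 116, 121 and 123 CPM in MUL1(−/−) libraries.

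PLA2G6, the calcium-independent enzyme that takes part in phospholipid remodelling and is known for its role in mitochondria and in neurodegeneration with brain iron, lies on chromosome 22 (chr22:38111495-38205690, minus strand; ENSG00000184381). It was measured at 34.1, 33.7 and 27.3 CPM in WT and at 25.2, 26.9 and 29.9 CPM in MUL1(−/−) libraries. WT replicate 3 and MUL1(−/−) replicate 3 lay inside the range of the other genotype. The log2 fold change of -0.21 ± 0.10 SE did not pass after adjustment (95% interval of the fold 0.749 to 0.995, unadjusted p = 0.0433, edgeR adjusted p = 0.0976), and it did when either of these libraries was left out, with -0.31 (adjusted p = 0.0113) without WT replicate 3 and -0.28 (adjusted p = 0.0312) without MUL1(−/−) replicate 3.

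PLA2G7 encodes the secreted PAF acetylhydrolase that circulates with lipoproteins and inactivates PAF and oxidised phospholipids (chr6:46704201-46735693, minus strand; ENSG00000146070). Its level was 1.98, 2.09 and 1.98 CPM in WT and 1.08, 1.45 and 1.33 CPM in MUL1(−/−) libraries, from 250 to 296 and 136 to 181 counts. All MUL1(−/−) libraries were below all WT libraries. The level fell to 0.636 of that in WT (log2 fold change -0.65 ± 0.15 SE, 95% interval of the fold 0.510 to 0.794, edgeR adjusted p = 0.00293). When the most counted exon bin alone stood for the gene, with 17 to 38 counts per library, the log2 fold change was -0.35 and did not pass (edgeR adjusted p = 0.368, DESeq2 adjusted p = 0.532).

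PLA2G15, the lysosomal enzyme that degrades phospholipids at acid pH, lies on chromosome 16 (chr16:68245304-68261062, plus strand; ENSG00000103066). It was measured at 8.53, 8.10 and 10.6 CPM in WT and 9.10, 8.16 and 9.64 CPM in MUL1(−/−) libraries. The groups overlapped entirely, and the 95% interval of the fold ran from 0.834 to 1.17 around a log2 fold change of -0.02 (edgeR adjusted p = 0.932), whose sign turned with library totals in place of TMM factors.

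PLAAT3 (PLA2G16), which acts on membranes of organelles and is abundant in fat tissue, lies on chromosome 11 (chr11:63573195-63616883, minus strand; ENSG00000176485). Its level was 17.3, 16.2 and 15.0 CPM in WT and 14.1, 12.97 and 15.4 CPM in MUL1(−/−) libraries. MUL1(−/−) replicate 3 lay above the lowest WT library. The log2 fold change was -0.19 ± 0.09 SE (95% interval of the fold 0.763 to 1.01, edgeR adjusted p = 0.136), and without MUL1(−/−) replicate 3 it was -0.25 and passed (adjusted p = 0.0465).

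The secreted enzymes stood at opposite ends of the family. PLA2G12A, a widely expressed secreted member with weak enzyme activity (chr4:109709989-109730077, minus strand; ENSG00000123739), was measured at 48.2, 45.0 and 43.3 CPM in WT and 43.5, 47.7 and 44.3 CPM in MUL1(−/−) libraries. The groups overlapped entirely, with a 95% interval of the fold from 0.890 to 1.11 around a log2 fold change of -0.01 (edgeR adjusted p = 0.930), whose sign turned with library totals. Of its counts, 77.6% lay in bins that an exon of another annotated gene also covers, and over the remaining bins the log2 fold change was 0.09 (adjusted p = 0.568).

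PLA2G2A, the secreted enzyme of inflammatory fluids and antibacterial defence (chr1:19975431-19980416, minus strand; ENSG00000188257), was the 1 member too low to test. It had 1, 5 and 10 counts in WT and 5, 1 and 2 counts in MUL1(−/−) libraries, between 0.00787 and 0.0794 CPM. A count of 3 corresponded to between 0.0212 and 0.0242 CPM, a limit that covers counting error only, and each genotype had a library under it. The groups overlapped, and without the filter on low counts the log2 fold change was -0.88 ± 0.80 SE (edgeR adjusted p = 0.528).

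**Figure D2:**
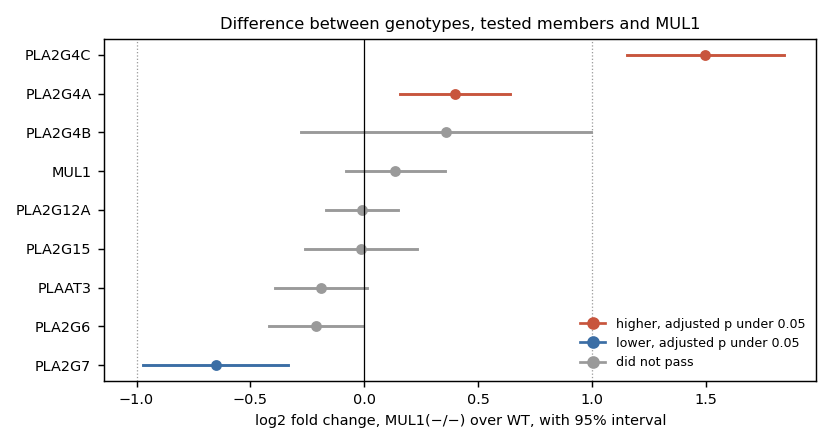
Log2 fold change of MUL1(−/−) over WT for the 8 tested members and MUL1, with 95% intervals from edgeR's fit; dotted lines mark a 2-fold change. PLA2G4C lies beyond the upper dotted line at 1.50, PLA2G4A at 0.40 and PLA2G7 at -0.65 lie off 0, the interval of PLA2G6, which did not pass after adjustment, ends just under 0, and the intervals of PLA2G12A and PLA2G15 lie closest around 0.

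The tables count reads in exon bins, so each gene could be followed along its length. In PLA2G4C, 46 bins had at least 20 counts, and in 41 of them all MUL1(−/−) libraries were above all WT libraries. In PLA2G4A the mean was higher in MUL1(−/−) in 17 of 18 such bins, without overlap in 9. In PLA2G7 it was higher in 0 of 12, and 9 of these lay below WT without overlap. In these 3 genes, most bins with such counts lay in the direction of the gene, PLA2G4A bins being closest to 0. The minimum is on the total of both genotypes, so bins can reach it through the genotype where they are high. In PLA2G4C, chr19:48106562-48106666 did so with 1, 1 and 2 counts in WT and 5, 9 and 3 in MUL1(−/−) libraries. A read is counted in every bin it touches, so bins of a gene are not independent of each other. Of whole tested genes 48.5% did not overlap, and no such share over all bins is given here.

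Of the 46 PLA2G4C bins, 5 did not separate the genotypes. Adjoining at the 5′ end of the first exon lie 3 of them, and the outermost, chr19:48110783-48110812, held 5, 4 and 6 counts in WT and 9, 3 and 1 counts in MUL1(−/−) libraries. The others lie further into the gene, where chr19:48096699-48096937 held 3, 2 and 5 against 4, 5 and 2 counts, and chr19:48072336-48073051 held 5, 4 and 4 against 15, 7 and 4 counts. The inner bins of the first exon did separate them, as in chr19:48110487-48110561 with 7, 4 and 3 against 21, 18 and 10 counts. The whole first exon (chr19:48110487-48110817) took 14.2 ± 2.79% of PLA2G4C counts in WT and 9.25 ± 1.92% in MUL1(−/−) (SD, n = 3), with overlapping libraries. This share was computed after the bins had been seen and is given as a description.

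Unequal change between the bins of a gene was tested with edgeR's exon usage test, which 14.3% of the 16222 genes with enough bins passed. Of the members, 0 of 8 passed, with a lowest adjusted p of 0.532 for PLA2G6 and 0 at an unadjusted p under 0.05, and 0 also passed when bins with at least 50 counts were used. Of single bins, 1 of 155 member bins differed from the rest of its gene, against 1.47% of all bins tested. It lies in PLA2G6 (chr22:38128161-38128268) and held 20, 17 and 13 counts in WT and 6, 5 and 2 in MUL1(−/−) libraries, a log2 fold change 1.13 below that of the gene (-1.13, adjusted p = 0.0290). In PLA2G6, 10 of 59 bins were below WT without overlap and 0 were above. No share over all bins is given beside this count, which is a description.

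Neighbouring genes were compared because the files give each gene's place. Around PLA2G4C, 11 of the 20 nearest tested genes (10 on each side) were higher and 1 was lower, against 18.8% and 18.7% of all tested genes. Their median log2 fold change was 0.49, and the median was 0.62 with 5 and 0.52 with 20 genes on each side. PLA2G4C, at 1.50, thus lay above a stretch of chromosome 19 whose genes were themselves mostly higher; how much of its difference the stretch shares was not tested. Its nearest tested neighbours moved in opposite directions. ELSPBP1, which encodes a sperm-binding protein, was lower (log2 fold change -0.79 ± 0.22 SE, edgeR adjusted p = 0.00989). PLA2G4C-AS1, an antisense transcript inside PLA2G4C, was higher, from 0.147 to 0.476 CPM (log2 fold change 1.69 ± 0.32 SE, adjusted p = 7.13e-04). The sources used here do not say whether reads were counted by strand, so reads of PLA2G4C and PLA2G4C-AS1 cannot be told apart where their exons overlap; 7.06% of PLA2G4C counts lay in bins that other genes' exons cover, and without those bins its log2 fold change was 1.49.

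Around PLA2G4A the 20 nearest tested genes had a median log2 fold change of -0.02, with 2 higher and 2 lower, and 0.38 with 5 genes on each side. The gene next to it on the side of its start is PTGS2, which encodes the inducible cyclooxygenase that takes the arachidonic acid released by PLA2G4A. PTGS2 was measured at 0.693, 0.601 and 0.437 CPM in WT and 1.47, 1.77 and 1.58 CPM in MUL1(−/−) libraries. It was 2.78-fold higher (log2 fold change 1.47 ± 0.19 SE, edgeR adjusted p = 2.06e-05), without overlap. Around the untested PLA2G2A, 13 of 20 genes were lower and 0 higher in edgeR's test, against 18.7% and 18.8% of all tested genes. Their median was -0.48, and MUL1 itself is the third tested gene beyond PLA2G2A on chromosome 1. At most 5 of the 20 neighbours were higher and at most 4 lower around each of the other 6 members.

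Of the 18 nearest tested genes on either side of the 9 members, 9 passed the test (50.0%, against 37.5% of all tested genes), 6 higher and 3 lower. In a fit of genes with at least 1 CPM in at least 3 libraries, 49.2% of all passed, so this share is only a description. ATL3, an endoplasmic reticulum GTPase gene beside PLAAT3, fell from 3.10 ± 0.225 to 0.0907 ± 0.0253 CPM (SD, n = 3; log2 fold change -5.08 ± 0.21 SE, edgeR adjusted p = 1.48e-10; -4.16 with the most counted bin). SLC3A2, the amino acid transporter subunit gene on the other side of PLAAT3, was higher (log2 fold change 0.36, adjusted p = 0.00138). SPTBN5, a spectrin gene after PLA2G4B, was higher by 1.24 on the log2 scale (adjusted p = 1.12e-04), as was TDRD6 beside PLA2G7 by 0.74 (adjusted p = 0.00497) and ENSG00000272720, a long noncoding RNA beside PLA2G6, by 0.52 (adjusted p = 0.0157; 0.102 without WT replicate 2). OTUD3, a deubiquitinase gene beside PLA2G2A, was lower, with a log2 fold change of -0.50 (adjusted p = 8.50e-05). JMJD7-PLA2G4B, the read-through gene, did not pass over the bins it shares with no other gene (log2 fold change -0.07, adjusted p = 0.705, a sign that turned with library totals). The remaining 8 nearest genes, among them VWA5B1 beside PLA2G2A, CFI beside PLA2G12A and ADGRF5 beside PLA2G7, did not pass either.

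The study concerns, among others, the transcription factor HIF-1α, which binds the letters ACGTG or GCGTG at hypoxia response elements, so these letters were searched on both strands of promoter windows from 250 bases before to 50 after a gene's start (RefSeq, GRCh38.p14). Windows were found for 8 of the 9 members, and PLA2G4C has no entry. ACGTG was present in 21.4%, GCGTG in 36.5% and either in 48.4% of 35116 windows of all genes. Either was found in 8 of the 12 windows of the members, some of which overlap. Windows of PLA2G4A and PLA2G7, the members that passed the test and have an entry, are shown, with that of PLA2G6 for its ACGTG. Capitals mark the letters found, on either strand, and lower case all other bases.
PLA2G4A (chr1:186828699-186828998, plus strand): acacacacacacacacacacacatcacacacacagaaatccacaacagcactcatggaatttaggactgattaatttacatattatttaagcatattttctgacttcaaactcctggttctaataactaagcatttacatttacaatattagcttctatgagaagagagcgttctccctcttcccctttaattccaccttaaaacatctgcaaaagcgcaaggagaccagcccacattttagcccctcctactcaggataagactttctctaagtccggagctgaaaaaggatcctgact
PLA2G7 (chr6:46735326-46735625, minus strand): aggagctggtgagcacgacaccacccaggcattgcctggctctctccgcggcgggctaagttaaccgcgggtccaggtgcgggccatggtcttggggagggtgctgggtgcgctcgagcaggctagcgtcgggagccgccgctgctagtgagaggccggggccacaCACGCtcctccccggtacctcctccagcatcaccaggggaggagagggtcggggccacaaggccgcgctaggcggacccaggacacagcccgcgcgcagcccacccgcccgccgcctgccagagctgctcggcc
PLA2G6 (chr22:38181781-38182080, minus strand): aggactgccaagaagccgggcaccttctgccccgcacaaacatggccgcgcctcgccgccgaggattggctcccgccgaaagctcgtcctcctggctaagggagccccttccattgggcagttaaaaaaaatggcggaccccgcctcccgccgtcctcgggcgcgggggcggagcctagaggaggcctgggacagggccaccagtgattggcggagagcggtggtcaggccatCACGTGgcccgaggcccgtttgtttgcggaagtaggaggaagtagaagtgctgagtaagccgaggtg
The PLA2G4A window held neither sequence and opened with a run of ca repeats, with 39.7% G and C and 3 CpG. The PLA2G7 window held GCGTG once, on the other strand, from position -84 to -80, with 72.0% G and C and 27 CpG, while the second window of this gene held neither. In PLA2G6 the overlapping ACGTG matches of both strands form CACGTG from position -17 to -12. PLA2G12A has the same palindrome from -150 to -145. A match or its absence is a description of these windows and says nothing of binding.

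The 3 genes most like PLA2G4C over the 6 libraries, by the mean absolute difference in log2 CPM relative to WT among 15857 candidate genes averaging 1 CPM or more, were IL3RA, ISL1 and PTPN20. IL3RA, the interleukin 3 receptor alpha chain, was closest at 0.111, followed by ISL1, a homeobox transcription factor, at 0.115 and PTPN20, a tyrosine phosphatase, at 0.125. Their log2 fold changes were 1.42, 1.44 and 1.57. They were chosen for these values, which are given as a description.

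Around the family, 71 of 91 other genes of the pathway could be tested, and 37 passed (52.1%), 22 higher and 15 lower, against 37.5% of all tested genes, with a median log2 fold change of 0.13 beside -0.01 over all tested genes. In a fit of the 16020 genes with at least 1 CPM in at least 3 libraries, 49.2% passed, so the share over all genes depends on level. No share of a list here or below is therefore a result about that list. With the most counted bin of each gene, 14 were higher. Among phospholipase A2 relatives, the secreted PLA2G10 and PLA2G3 were the 2 of 9 secreted relatives with enough counts, and both were higher at trace levels. Genes this low can pass the filter on low counts through the genotype where they are high, as PLA2G10 did. Their shared direction is therefore not a result about the relatives. PLA2G10, a potent secreted enzyme on phosphatidylcholine, had 6, 13 and 6 counts in WT and 20, 40 and 16 in MUL1(−/−) libraries (log2 fold change 1.67 ± 0.45 SE, edgeR adjusted p = 0.00838; 0.0786 without MUL1(−/−) replicate 2). PLA2G3 had 12, 13 and 16 against 36, 30 and 14 counts, which overlap (log2 fold change 1.02 ± 0.39 SE, adjusted p = 0.0489). Its call was lost by DESeq2 (0.102), by limma-voom (0.0824) and without any 1 library other than MUL1(−/−) replicate 3 (0.0568 to 0.207).

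Of the cytosolic relatives, 1 of 3 could be tested. PLA2G4E did not pass at 0.0523 and 0.0796 CPM (log2 fold change 0.63 ± 0.80 SE, edgeR adjusted p = 0.580; the sign turned without MUL1(−/−) replicate 2), and PLA2G4F was too low to test at 0.0639 CPM in WT and 0.0720 CPM in MUL1(−/−). Of 4 genes of intracellular PAF acetylhydrolases and relatives, 2 were higher and 1 lower. PAFAH1B1, the regulatory subunit also known as LIS1, rose from 94.3 ± 3.16 to 152 ± 8.005 CPM (log2 fold change 0.69 ± 0.07 SE, adjusted p = 1.92e-06). PAFAH1B3, a catalytic subunit, was higher by 0.19 on the log2 scale (adjusted p = 0.0418), a call lost without any 1 library other than MUL1(−/−) replicate 3 (0.0583 to 0.164) and with the most counted bin by edgeR and by DESeq2 (up to 0.123). Of the relatives of PLAAT3, 1 of 4 could be tested, PLAAT1 at 4.81 and 4.62 CPM (log2 fold change -0.06, adjusted p = 0.748, whose sign turned with library totals), and PLAAT4 was too low at 0.0197 and 0.0266 CPM.

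Of the phospholipase A2 receptor and regulators, 4 of 5 could be tested, 2 were higher and 1 lower. ANXA1, annexin A1, a calcium-binding protein known as an inhibitor of cytosolic phospholipase A2, was measured at 12.9, 13.4 and 18.4 CPM in WT and 37.1, 38.9 and 32.0 CPM in MUL1(−/−) libraries. It was 2.42-fold higher without overlap (log2 fold change 1.28 ± 0.12 SE, edgeR adjusted p = 1.43e-06).

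Of 24 genes of eicosanoid synthesis, 22 could be tested, 7 were higher, 5 lower and 10 did not pass, with a median log2 fold change of 0.09. Those that passed were 54.5% of the genes tested here, against 37.5% of all tested genes. Past both thresholds were 3 higher genes, PTGS2 (above), AKR1C3 and ALOX15B, and 2 lower genes, PTGIS and PRXL2B. AKR1C3, an aldo-keto reductase that makes prostaglandin F, rose from 0.143 ± 0.0939 to 1.43 ± 0.222 CPM (log2 fold change 3.34 ± 0.33 SE, edgeR adjusted p = 2.20e-06). It has close paralogs, whose reads may have been given to it, which was not tested. ALOX15B, a lipoxygenase, rose from 0.0807 ± 0.0151 to 0.327 ± 0.0342 CPM (log2 fold change 2.00 ± 0.32 SE, adjusted p = 1.51e-04). PTGIS, prostacyclin synthase, had 55, 61 and 59 counts in WT and 3, 13 and 0 in MUL1(−/−) libraries (log2 fold change -3.35 ± 0.53 SE, adjusted p = 1.49e-04). MUL1(−/−) replicate 2 held most of these, and without it the log2 fold change was -5.09. PRXL2B, a prostaglandin F synthase, fell from 40.5 ± 1.67 to 13.1 ± 0.860 CPM (log2 fold change -1.62 ± 0.08 SE, adjusted p = 1.34e-09). Like PLA2G10, AKR1C3, ALOX15B and PTGIS can pass the filter on low counts through the genotype where they are high.

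Of 15 receptors for eicosanoids and PAF, 11 could be tested, 4 were higher and 0 lower in edgeR's test. These were 36.4% of those tested, near the 37.5% of all tested genes, so the count is not a result about the receptors. PTGFR, the prostaglandin F receptor, had 6, 13 and 8 counts in WT and 180, 212 and 101 in MUL1(−/−) libraries (log2 fold change 4.24 ± 0.33 SE, adjusted p = 2.21e-07). Like PLA2G10, PTGFR passed the filter on low counts through the genotype where it is high. PTGER3, a prostaglandin E receptor, rose from 0.180 ± 0.0725 to 0.402 ± 0.103 CPM (log2 fold change 1.16 ± 0.32 SE, adjusted p = 0.0110; 0.0528 without WT replicate 1 and 0.0624 without MUL1(−/−) replicate 2, and 0.0620 with the most counted bin by DESeq2). In WT both lay under 1 CPM.

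Of 10 genes of lysophospholipid reacylation 2 were higher and 5 lower (70.0%, against 37.5% of all tested genes), with a median log2 fold change of -0.10. MBOAT1, an acyltransferase that prefers oleic acid and serine- or ethanolamine-containing lysophospholipids, fell from 8.39 ± 0.706 to 3.80 ± 0.578 CPM (log2 fold change -1.15 ± 0.13 SE, edgeR adjusted p = 5.54e-06). Of 10 genes of lysophospholipid breakdown 3 were higher and 2 lower (50.0%, against 37.5% of all tested genes), with a median of -0.08. PNPLA6, neuropathy target esterase, rose from 25.3 ± 1.50 to 50.7 ± 3.75 CPM (log2 fold change 1.01 ± 0.08 SE, adjusted p = 2.59e-07). GDPD3, a lysophospholipase D, fell from 4.67 ± 0.894 to 1.71 ± 0.0767 CPM (log2 fold change -1.45 ± 0.15 SE, adjusted p = 2.91e-06). Of 7 genes of lysophosphatidic acid synthesis and reception, 6 could be tested and 1 was lower (16.7%, against 37.5% of all tested genes). The highest mean CPM were those of the receptor LPAR3 (log2 fold change -0.27, adjusted p = 0.0841; 0.00720 without WT replicate 3, and at most 0.00994 with the most counted bin) and ENPP2, autotaxin (0.22, adjusted p = 0.0986; 0.0282 with library totals, and a log2 fold change of -0.04 with the most counted bin), which did not pass.

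The cell identity and possible other cell types were read from marker lists. Of 9 HEK293 markers 9 could be tested, with VIM, vimentin, the most abundant, and their summed level was 1527, 1381 and 1313 CPM in WT and 1091, 1116 and 936 CPM in MUL1(−/−) libraries. Of these markers 4 were lower, 1 was higher and 4 did not pass, so that 55.6% passed, against 37.5% of all tested genes. In a fit of genes with at least 1 CPM in at least 3 libraries, 49.2% of all passed. PAX2, a kidney transcription factor, was lower (log2 fold change -1.80, edgeR adjusted p = 1.53e-06) and NEFM, a neurofilament gene, was the 1 higher (1.06, adjusted p = 2.09e-05). The keratin gene KRT8 (-0.93), the transcription factor gene LHX1 (-0.55) and VIM (-0.34), named after their values were seen, were the others that were lower. Of 4 leukocyte markers 1, PTPRC, was higher, from 0.0951 to 0.365 CPM (log2 fold change 1.94, and 2.59 without WT replicate 1), with a summed level of 0.984, 0.813 and 1.14 CPM in WT and 1.64, 1.78 and 1.30 CPM in MUL1(−/−) libraries, of which CD14 gave most and the T cell gene CD3E had 0 or 1 count per library. Of 2 endothelial markers PECAM1 was higher, from 0.0518 to 0.223 CPM (log2 fold change 2.06, and 2.78 without WT replicate 2), with sums of 0.0157, 0.0990 and 0.0635 against 0.332, 0.248 and 0.218 CPM. Genes as low as PTPRC and PECAM1 can pass the filter on low counts through the genotype where they are high. Of 3 fibroblast markers DCN was higher (1.19 to 2.92 CPM) and COL1A1 lower (log2 fold change -0.39, adjusted p = 0.00832), while the sums, mostly COL1A1, overlapped (22.5 to 30.2 against 19.3 to 24.8 CPM), as did those of the 2 hepatocyte markers (0.134 to 0.310 against 0.210 to 0.344 CPM, mostly ALB). The part of these transcripts in the values of PLA2G4A, PLA2G4C and PLA2G7 was not tested, and in bulk RNA fewer cells and less RNA per cell cannot be told apart.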

How the data were processed

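The 6 libraries were 3 WT and 3 labelled MUL1(−/−). Their deposited values were raw counts for each exon bin of a flattened GRCh38 annotation, which the authors had not normalized. The submitters' processing notes name Trimmomatic 0.36 and STAR 2.5.2b, and the counting program is not given in the sources used here. Libraries were made with a SMARTer kit, and the study's methods name DESeq2.

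A gene's count was the sum over the bins listed under that gene alone, with joined identifiers resolved by GENCODE 29 exons. Exons of another gene, on either strand, can still cover such a bin. A read counts in each bin it touches, so sums exceed reads. Library totals stand at the start of the report, and 1 count was worth 0.00707 to 0.00807 CPM. Because gene-level counts had been planned for, this sum was chosen after the tables were read. R 4.3.3 with edgeR 4.0.16 was used for filterByExpr, TMM factors (WT 0.946 to 0.992, MUL1(−/−) 1.02 to 1.03), the quasi-likelihood test without covariates and Benjamini-Hochberg adjustment; exon use was tested with diffSpliceDGE. Changed means an adjusted p under 0.05, and the second threshold is an absolute log2 fold change over 1. Alternatives used DESeq2 1.42.0 and limma 3.58.1; figures used Python 3.11.15 and matplotlib 3.10.9. The tests were tested on simulated data. On 1 bin per gene, that with most counts, so that reads enter once, pairs of replicates had a chi-square of 3.32 to 11.1 per degree of freedom, above counting error alone, so no library was taken for a repeat deposit of another; this does not show that they are biological replicates.

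The members and lists were chosen with earlier results of these data known, and no list is independent support. Genes are named by a rule: all members, MUL1, in each list the genes past both thresholds (at most 5, or the 2 most abundant where there were none), the 3 genes most like a member past both thresholds, and the nearest tested gene on each side of each member, of which unnamed identifiers that did not pass are only counted. Tried as alternatives were 15 planned settings and 2 added after seeing the data (most counted bin with DESeq2, and joined bins counted for each of their genes).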

Additional observations from a re-analysis of the deposited data

How the results depend on the processing

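The log2 fold change of PLA2G4C ran from 1.32 to 1.67 over 17 alternatives and passed both thresholds in 17. PLA2G4A ran from 0.28 to 0.52 and passed in 16, all but the most counted bin with DESeq2 (0.40, adjusted p = 0.0589). PLA2G7 ran from -0.73 to -0.35 and passed in 15, all but the most counted bin with edgeR (-0.35) and with DESeq2 (-0.35), which holds fewer counts than the sum. Accordingly, with that bin 0 members were lower by edgeR and 0 by DESeq2, 1 was higher by DESeq2, and 14 (edgeR) or 13 (DESeq2) other genes of the pathway were higher. Leaving out 1 library, 1 to 3 members were lower, since PLA2G6 ran from -0.31 to -0.14 and PLAAT3 from -0.25 to -0.12. With at least 1 CPM in at least 3 libraries, 331 genes were higher and 446 lower past both thresholds, against 1064 and 973 in the main fit. Fewer genes were tested there (16020 against 25125), and the balance of directions differed, the cause of which was not tested.

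Signs turned for 8 named genes that did not pass, 4 of them over 0.2 from 0 (PLA2G4E, PLA2G4B, ALB and ENPP2), and the cause was not tested. PLA2G12A was at 0.061 with library totals, 0.020 without a filter on low counts, 0.0024 with at least 1 CPM, 0.089 over bins of no other gene, and -0.048 to 0.030 leaving out 1 library. PLA2G15 was at 0.053 with library totals, 0.015 without a filter, and -0.095 to 0.11 leaving out 1 library. PLA2G4B was at -0.061 with the most counted bin by edgeR, -0.060 by DESeq2, and -0.12 with joined bins counted for each gene. JMJD7-PLA2G4B was at 0.0042 with library totals and, with the most counted bin, at 0.040 by edgeR and 0.041 by DESeq2. PLAAT1 was at 0.013 with library totals and -0.17 to 0.0029 leaving out 1 library. ENPP2 was, with the most counted bin, at -0.043 by edgeR and -0.041 by DESeq2. PLA2G4E was at -0.060 by limma-voom and -0.090 to 1.78 leaving out 1 library, and ALB at -0.034 to 0.81 leaving out 1 library.

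With the replicate number as a block (replicate block), the log2 fold changes were 1.47 for PLA2G4C, 0.41 for PLA2G4A and -0.66 for PLA2G7 and no member's call changed, while PLA2G3 was lost (adjusted p = 0.0954). Samples of the same number deviated together with r = -0.08, 0.16 and 0.10 over 15858 genes. Pairs of different numbers ran from r = -0.18 to 0.0996. The deviations are from means of 3 libraries, so these values cannot tell whether samples of the same number share more than a number. Depth limits PLA2G2A, PLA2G3, PLA2G4E and PLA2G10, with at most 40 counts in a library.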
